A study of Schizosaccharomyces pombe with 4 samples.

Results

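The comparison set H3K9me3 of the Schizosaccharomyces pombe strain IRD1 against that of the strain WT along the whole genome. Its members were the arrays titled for IRD1 and for WT, which are 2 of the 4 arrays of the series, and the remaining arrays carry the strains IRD2 and IRD3. All 4 titles end in REIID. The labels explain neither this tag nor IRD, so IRD1 is described only by its name. In the labels of IRD1 and IRD3 the genotype and antibody entries are exchanged, so the strains were taken from the titles. Both cultures were growing exponentially, were fixed with paraformaldehyde and were precipitated with the same antibody to H3K9me3. Precipitated DNA was labelled with Cy5 and whole-cell extract DNA, called input here, with Cy3, so every ratio is precipitated over input. There was 1 array per strain, so there was no replicate to check a difference against and no p-value is given, and a change between strains cannot be told apart from a difference between 2 cultures or 2 arrays.

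In fission yeast, trimethylation of lysine 9 of histone H3 marks constitutive heterochromatin. The enzyme Clr4 writes the mark, and HP1 proteins such as Swi6 bind it. The mark covers the outer repeats of the centromeres, the silent mating-type region and the chromosome ends, where it is recruited by small RNAs from repeats or by DNA-bound proteins and can then spread along chromatin until a boundary element stops it. The ends of chromosome 3 hold the ribosomal DNA repeats.

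Each array held 41551 genomic probes in steps of 300 bp, of which 41075 were usable in WT and 38502 in IRD1, and 38153 were measured on both. Of these, 37970 lay on chromosomes 1 to 3 and on a contig of the array that carries the mating-type region by itself. Values are log2 of precipitated over input signal centred so that each array's median is 0, and differences are IRD1 minus WT for the same probe. Quartiles over probes, given in parentheses, describe the spread along a region and not the error between cultures. In bulk cells, the mark in fewer cells and less of the mark per cell cannot be told apart. Positions were read from the names of the probes. Their genome build is not given in the sources used here, so no region is given a gene name. Some names end in f or m, and the meaning of these suffixes is not given either. Outlier-flagged spots were 7.33% of the probes in IRD1 and 1.13% in WT, and 4.28% in IRD3 and 0.54% in IRD2. In IRD1 they were not spread evenly, since they made up 11.4% of spots in the lower rows of the array and 1.15% in the upper rows, and on the WT array the same probes had a median ratio of -0.60. The probes left out were thus mostly ones with little mark in WT.

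Most of the genome differed little between the arrays, and the large differences lay in a few short stretches, nearly all of them near chromosome ends. Over 36882 arm probes, that is probes outside the heterochromatin domains, the chromosome ends and the 20 kb beside the mating-type domain, the median difference was -0.09 (-0.28 to 0.12). With outlier-flagged spots kept, the median over 40222 arm probes was -0.05, so the size of this small offset depends on the spots left out. The change in IRD1 minus WT between neighbouring arm probes, divided by the square root of 2, had an SD of 0.23. A difference of at least 1, which is a doubling, was seen at 199 of 37970 probes (0.524%), and a difference of at most -1 at 38 probes (0.1%). In windows of 1.5 kb with at least 3 probes, a window counted as gained when its median was at least 1 in IRD1, under 1 in WT and higher by at least 1. By this rule 12 of 8167 windows (0.147%) were gained in IRD1 and 2 (0.0245%) were lost. Of the 12, 7 lay side by side from 5526000 to 5536500, where the right end of chromosome 1 meets the arm. Of the others, 2 lay near the left end of chromosome 1, 1 near the right end of chromosome 2, 1 near the left end of chromosome 3 and 1 on the left arm of chromosome 2. Stretches of at least 4 consecutive probes that all differed by at least 1 numbered 12 with higher values in IRD1, covering 138 probes, and 1 with lower values, covering 9 probes. Of the 138 probes, 74 carried a suffix. The 12 stretches include 7 probes on the contig pNSU21, 4 on pNSU64 and 4 on pNSU77, which lie outside the 37970 probes. There the precipitated signal alone was higher in IRD1 by only 0.44, 0.28 and 0.34. The stretches described below were delimited by these differences or by the WT profile, after the values were seen, so their size and the agreement of their probes are a description.

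**Figure D1:**
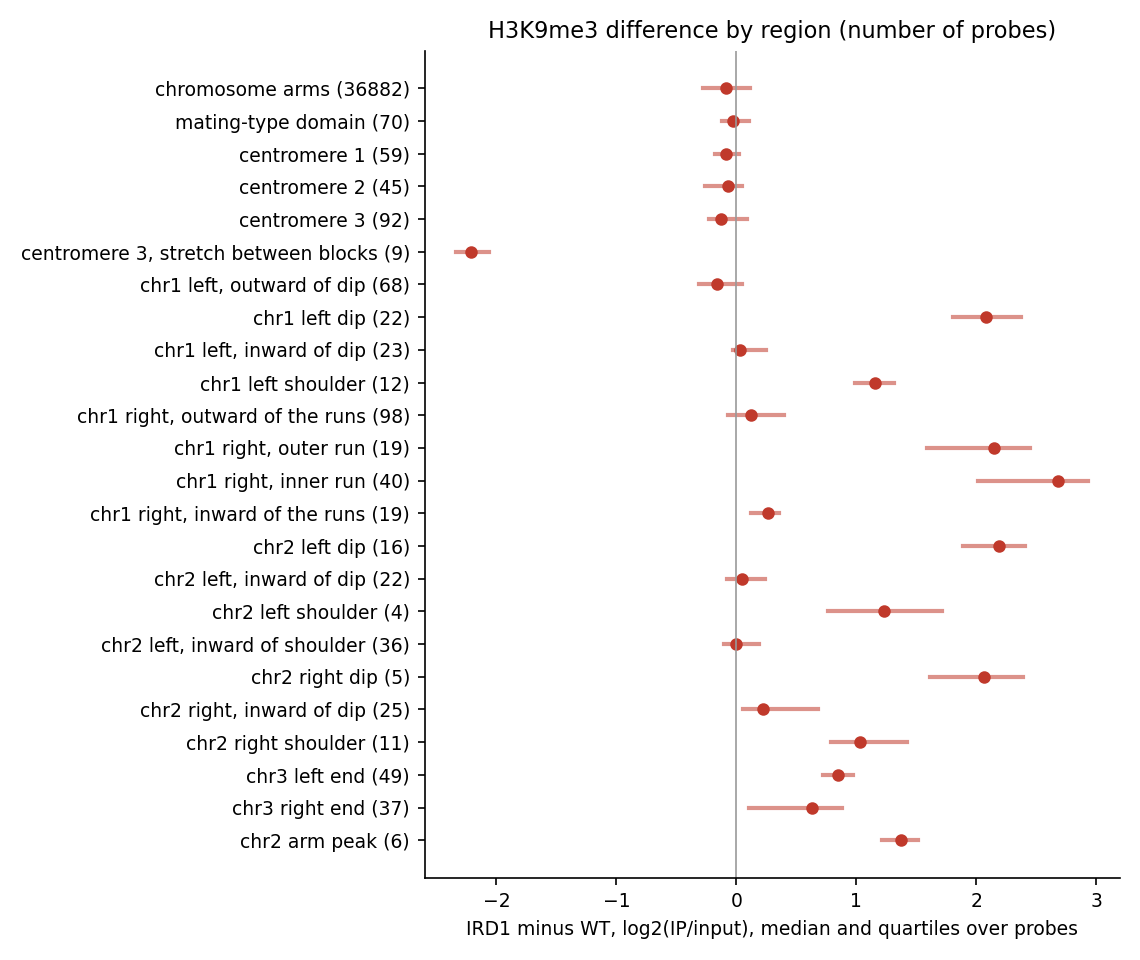
Differences between IRD1 and WT in log2(IP/input) by region, with the median as a point, the quartiles over probes as a bar and the number of probes in parentheses. The mating-type domain and the centromeres lie near 0, the inner run of the right end of chromosome 1 lies highest at 2.68, and a stretch of 9 probes inside centromere 3 lies lowest at -2.21.

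The established domains carried about the same level of the mark in both strains. The mating-type domain of chromosome 2 holds the silent copies of the mating-type genes. There, the ratio on the chromosome 2 probes ran from 4.06 to 6.12 in WT and from 3.96 to 6.07 in IRD1. On the mating-type contig it ran from 4.02 to 6.91 in WT and from 3.87 to 7.04 in IRD1. Over both, the median difference was -0.03 (-0.12 to 0.10) on 70 probes, and 30 of the 70 were higher in IRD1. The ranges of the arrays overlap almost wholly.

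At the first probes outside that domain the differences were small and changed sign with distance. Leftward, the probe at 2130900 had 1.99 in WT and 2.72 in IRD1, and the probe at 2130600 had 1.30 and 1.60. On the mating-type contig, 19200 had 1.68 in WT and 2.63 in IRD1. Of the first 5 probes leftward, however, 3 were higher and 2 lower in IRD1, with a median difference of 0.30 (-0.36 to 0.34). From 1.5 to 5 kb leftward the median difference over 11 probes was -0.02 (-0.23 to 0.03). Rightward, the first 4 measured probes had a median difference of 0.09, and from 1.5 to 5 kb outward 10 of 11 probes were lower in IRD1, with a median of -0.47 (-0.51 to -0.29). In that distance class the WT level was 1.82 and the IRD1 level 1.56. From 5 to 10 kb rightward, 16 of 17 probes were lower, by a median of -0.36 (-0.51 to -0.16), and from 10 to 20 kb the median difference was -0.04 over 30 probes. From 5 to 10 kb leftward, 12 of 17 probes were lower, by a median of -0.17 (-0.39 to 0.04). For scale, arm probes with a WT ratio between 1.5 and 2 differed by -0.41 (-0.56 to -0.22), so the right flank from 1.5 to 5 kb lay within the range of arm probes of its level.

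The 3 centromeres, whose outer repeats are the densest heterochromatin of this genome, also differed little between the arrays. The median difference was -0.09 (-0.18 to 0.02) over 59 probes of centromere 1, -0.07 (-0.26 to 0.05) over 45 probes of centromere 2 and -0.13 (-0.23 to 0.09) over 92 probes of centromere 3. Each was a run, or a set of neighbouring runs, of high H3K9me3 in WT. The median differences of the blocks with at least 4 probes ran from -0.25 to 0.07. They were negative in every block of centromeres 1 and 2, and of both signs only at centromere 3. At centromere 1 the left block, from 3753300 to 3765600, went from 6.27 in WT to 6.22 in IRD1, and the right block, from 3778200 to 3786000, from 6.31 to 6.42. Probe by probe, however, the right block was also lower in IRD1 at 14 of 19 probes, with a median difference of -0.10. At centromere 2 the largest block, from 1603200 to 1610700, went from 6.51 to 6.42, and the outermost right block, from 1640400 to 1645500, had the lowest of these differences, at -0.25 (-0.38 to -0.00) over 9 probes. At centromere 3 the left block, from 1069200 to 1093200, went from 6.55 to 6.39, and the block from 1107300 to 1122300 from 6.50 to 6.66.

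Between the blocks the median ratio was below the array median in both strains, and it was lower in IRD1 at centromeres 1 and 3. The gap of centromere 1, from 3765900 to 3777900, had a median of -1.16 in WT and -1.59 in IRD1, with a median difference of -0.40 (-0.68 to -0.16), and 29 of 34 probes were lower. The median there was -1.64 in IRD2 and -1.65 in IRD3, so the WT array stands apart. The gap of centromere 2 from 1620300 to 1631400 had -1.65 and -1.69, with a median difference of -0.05 (-0.14 to 0.12). The gap of centromere 3, from 1093500 to 1105500, had -0.86 and -1.25, and its differences spread widely (-2.07 to 0.03). It was not low throughout in WT, where the third quartile was 1.28. Its 6 probes without a suffix differed by a median of 0.03. For scale, mitochondrial probes, whose DNA carries no histones, had a median of -1.66 in WT and -1.75 in IRD1. The gap of centromere 1 in IRD1, and that of centromere 2 in both strains, thus lay near the level of DNA without histones. Mitochondrial input was far brighter, however, at 4.22 in WT relative to the array median, against 0.51 and 0.30 in these gaps.

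The wide spread in centromere 3 came from the largest loss on the arrays. Over 9 consecutive probes from 1094100 to 1096500, in the gap just inward of the left block, the ratio ran from 0.97 to 1.61 in WT and from -0.98 to -0.51 in IRD1. The ranges do not overlap, and the median difference was -2.21 (-2.33 to -2.06), so the WT level was 4.62 times that of IRD1. The adjoining probes set sharp limits to the stretch. Outward, at 1093500 and 1093800, WT had 0.58 and 0.32 and IRD1 had 0.34 and 0.30. Inward, at 1096800, WT was at the array median and IRD1 at -0.64, and from there to 1098300 both arrays were mostly below 0. All 9 probes carry the suffix f. Their input was 0.42 higher in IRD1 on the log2 scale, and their precipitated signal alone was 1.77 lower. The median ratio over the 9 probes was -0.66 in IRD2 and -0.51 in IRD3. These comparisons share the WT array with that of IRD1, so it is WT that stands apart from the other 3 arrays here. The only other lost window, from 1156500 to 1158000 on the same chromosome, had medians of 1.38 in WT and 0.35 in IRD1, but its probes overlapped, with -0.11 to 1.77 in WT and -0.35 to 1.56 in IRD1.

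The right end of chromosome 1 held the largest gain, in 2 neighbouring runs of probes that differed by at least 1 and were parted by a single probe. In the inner run, from 5525100 to 5536800, the ratio of the 40 probes ran from -0.33 to 1.31 in WT and from 0.99 to 4.29 in IRD1, so the ranges hardly overlap. The median was 0.22 in WT and 2.78 in IRD1, and the median difference was 2.68 (2.01 to 2.93), or 6.41-fold. Input was about equal, with a difference of -0.09, and the precipitated signal alone was higher by 2.69, so the change of ratio lay in the precipitated channel. Of these probes, 36 carry no suffix, and they alone gave 2.71. In the outer run, from 5537400 to 5542800, the 19 probes ran from 0.48 to 3.36 in WT and from 3.41 to 5.11 in IRD1, which do not overlap. The median difference there was 2.15 (1.59 to 2.45).

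The gain was graded along the chromosome. Going outward, the ratio in IRD1 was 0.52 at 5524800, 1.13 at 5525400, 1.57 at 5526000, 2.44 at 5528700, 3.41 at 5530200 and 4.29 at 5535000. At the same 6 positions WT had -0.46, 0.08, 0.29, -0.33, -0.31 and 0.59. WT was thus still near its array median where IRD1 had climbed past 3. WT began its own rise further out, with 1.31 at 5535900, 2.04 at 5540100, 3.12 at 5541600 and 3.36 at 5542500, where IRD1 had 4.13, 4.23, 4.31 and 4.57. From 5543100 to the last probe at 5574600 the median difference was 0.12 (-0.07 to 0.39) over 98 probes. That outermost part, with medians of 4.43 in WT and 4.74 in IRD1, therefore differed far less than both runs. Its 61 probes with a suffix differed by a median of 0.05, but its 37 probes without a suffix by 0.39. The strains differed most in how far inward the mark reached. Measured from the last probe by 5-probe running medians, a level of at least 3 reached 33 kb inward in WT and 42 kb in IRD1, and a level of at least 1 reached 38.7 kb and 49.2 kb. Inward of both runs, from 5519100 to 5524800, IRD1 was still higher at 17 of 19 probes, with a median difference of 0.27 (0.12 to 0.36). The IRD2 and IRD3 arrays had medians of 3.48 and 3.92 in the inner run, set against the same WT array, and a level of at least 1 reached 50.4 kb and 51 kb.

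**Figure D2:**
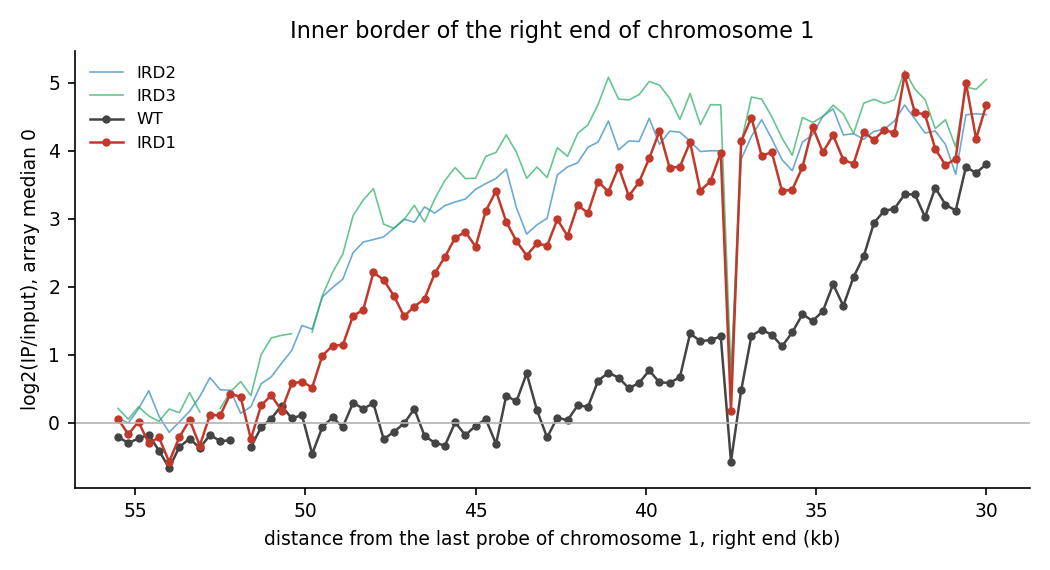
Ratio where the right end of chromosome 1 meets the arm, with the distance from the last probe in kb on the x axis (telomere to the right) and log2(IP/input) on the y axis, for WT and IRD1 (points) and for IRD2 and IRD3 (thin lines). IRD1 climbs from about 50 kb and WT from about 40 kb, and the single low point on all arrays is the suffix m probe at 5537100.

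A small patch on another chromosome resembled part of the inner run. On the left arm of chromosome 2, the 4 probes from 76200 to 77100 had 0.32, 0.39, 0.22 and 0.00 in WT and 2.79, 2.76, 2.34 and 2.27 in IRD1. The neighbours without a suffix stayed low, with 0.06 in WT and 0.41 in IRD1 at 75900, and -1.12 and -0.17 at 77400. All 4 probes of the patch carry the suffix f, as do the 4 probes from 5530800 to 5531700 inside that run, which had -0.22 to 0.73 in WT and 2.46 to 2.67 in IRD1. Both groups had similar levels on each array. Their medians were 0.27 and 0.25 in WT and 2.55 and 2.62 in IRD1. On the IRD2 array they were 2.98 and 2.96, and on the IRD3 array 3.66 and 3.68. Input at both was above the array median in WT, at 0.85 and 1.05, while most of the other probes beside the 2 groups were below it. Whether the 2 groups of probes read shared sequence was not tested, since the files hold no probe sequences, so the patch is not counted here as a separate site.

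The left end of chromosome 1 and both ends of chromosome 2 shared a layout in which IRD1 differed most at 2 places, with smaller differences between them. The layout has a steep step in the WT ratio, at 36300 to 36600 from the left of chromosome 1, at 15600 to 15900 from the left of chromosome 2 and at 4498800 to 4498500 at the right of chromosome 2. Just outside the step both strains had a ratio near 4, and just inside it WT fell to the array median while IRD1 stayed above it. At the left of chromosome 1, WT went from 4.02 to -0.09 across the step and IRD1 from 3.90 to 1.18. At the left of chromosome 2, WT went from 3.89 to -0.05 and IRD1 from 3.85 to 1.74. At the right of chromosome 2, WT went from 4.08 to 0.01 and IRD1 from 3.97 to 1.57. The step thus stood at the same probe in both strains at all 3 ends, and IRD1 had between 1 and 2 at the first probe inward of it.

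Over the shoulder of chromosome 1, from 36600 to 39900, the ratio ran from -0.55 to 0.49 in WT and from 0.64 to 1.32 in IRD1, and the median difference was 1.15 (0.99 to 1.32) over 12 probes. Over the right shoulder of chromosome 2, from 4495500 to 4498500, it ran from -0.57 to 0.31 in WT and from 0.41 to 1.57 in IRD1, and its 11 probes differed by a median of 1.03 (0.79 to 1.42). The ranges did not overlap at either. The left shoulder of chromosome 2, from 15900 to 18600, had 4 probes, with -0.05, -0.51, -0.32 and 0.02 in WT and 1.74, 1.18, 0.45 and 0.75 in IRD1. Input differed by -0.07 in the shoulder of chromosome 1 and by -0.02 in each of those of chromosome 2, so DNA content was about equal. Medians in IRD2 and IRD3 at the chromosome 1 shoulder were 1.19 and 0.71, against the same WT array.

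Outward of the step the strains were closer for 8 to 10 kb and then differed again. From 28500 to 36300 on chromosome 1 the median was 4.28 in WT and 4.37 in IRD1, with a difference of 0.03 (-0.03 to 0.25) over 23 probes. From 6000 to 15600 on chromosome 2 it was 4.27 and 4.43, with a difference of 0.05 (-0.08 to 0.24) over 22 probes. At the right of chromosome 2, from 4498800 to 4509000, it was 4.21 and 4.51, and 20 of 25 probes were higher in IRD1, by a median of 0.22 (0.05 to 0.68), so that end was less alike than the others. Further out, WT dipped and IRD1 did not. From 21900 to 28200 on chromosome 1 the ratio ran from 1.95 to 3.48 in WT and from 3.75 to 5.86 in IRD1, with no overlap, and the median difference was 2.08 (1.80 to 2.37) over 22 probes. From 300 to 5100 on chromosome 2 it ran from 2.13 to 3.94 in WT and from 3.24 to 5.51 in IRD1, where the ranges overlap, and all 16 probes were higher in IRD1 by a median of 2.19 (1.88 to 2.41). At the right tip of chromosome 2, from 4509300 to 4510500, the 5 probes ran from 2.08 to 3.32 in WT and from 4.08 to 4.92 in IRD1.

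Unlike at the shoulders, input differed in the dips. It was lower in IRD1 by 0.45 on the log2 scale at the left of chromosome 1, by 0.58 at the left of chromosome 2 and by 0.59 at the right tip. Part of each higher ratio was therefore a lower denominator, and the precipitated signal alone was higher by 1.63, 1.49 and 1.55. Median input in these dips was 0.63, 0.79 and 1.04 in WT, 0.16, 0.31 and 0.55 in IRD2, and 0.17, 0.31 and 0.45 in IRD3. Median ratios were 2.85, 3.01 and 2.47 in WT, 4.88, 4.84 and 4.46 in IRD2, and 4.41, 4.50 and 4.38 in IRD3. It is thus the WT array that stands apart in the dips. Between the dip and the step, input differed by -0.04 on chromosome 1, by 0.01 at the left of chromosome 2 and by -0.15 (-0.25 to -0.01) at its right, where it was thus also lower in IRD1. Nearly all of these probes carry a suffix (19 of 22, 16 of 16 and 5 of 5), and whether the 3 ends are read by shared sequence was not tested, so they are not separate observations. Further parts of both left ends differed less. Outward of the dip on chromosome 1, up to 21600, the median was 6.20 in WT and 6.02 in IRD1 over 68 probes, and inward of the shoulder at the left of chromosome 2, from 21300 to 39900, it was -0.16 and -0.07 over 36 probes. Just inward of the chromosome 1 shoulder, however, the 6 probes from 40200 to 41700 were all higher in IRD1, by 0.51 to 1.46.

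**Figure D3:**
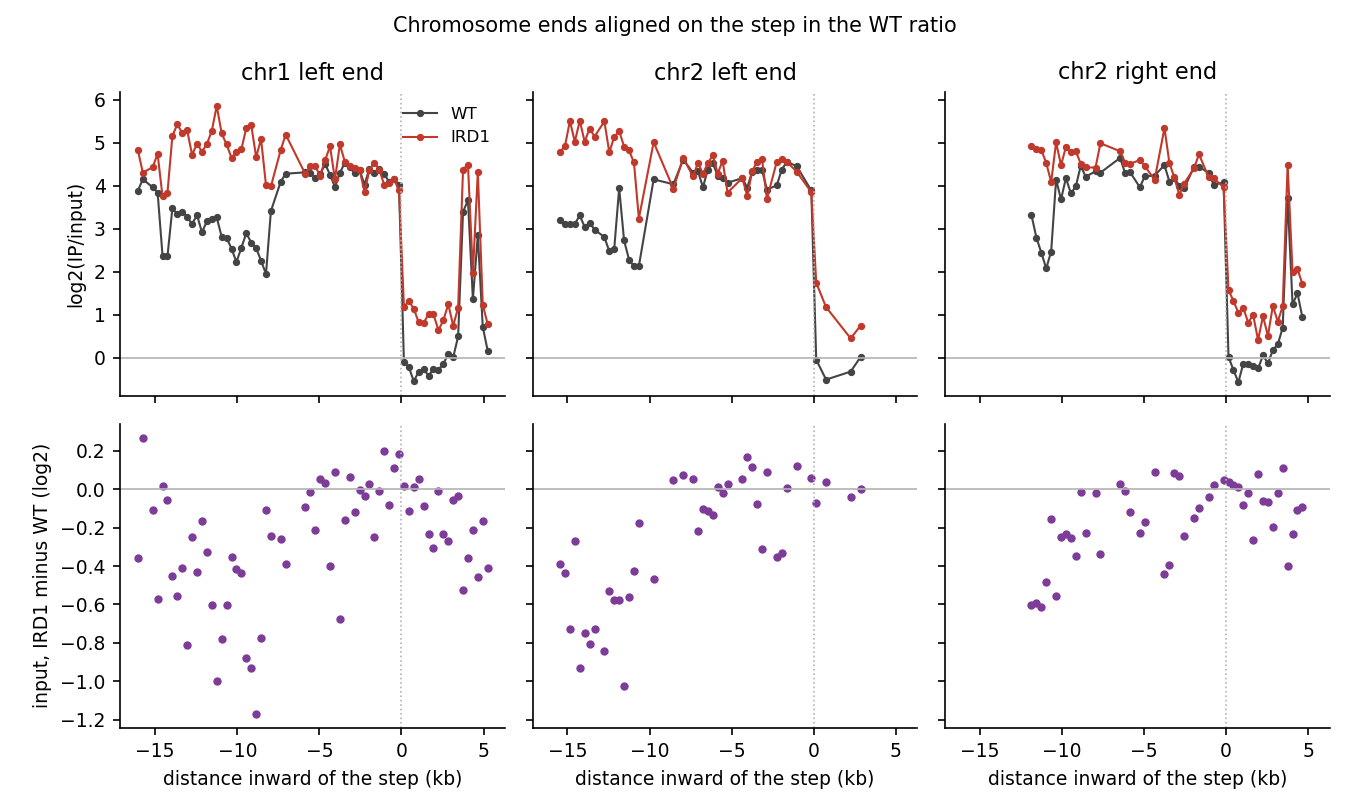
Top, log2(IP/input) of WT and IRD1 at 3 chromosome ends, against the distance in kb inward of the step in the WT ratio (dotted line, telomere to the left). Bottom, the input difference between IRD1 and WT on the log2 scale for the same probes, which is near 0 around the step and mostly negative where the WT ratio dips.

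At the ends of chromosome 3 the difference was even over the left end and over the outer part of the right end. The left end, the outer 20 kb, had a median of 1.54 in WT and 2.40 in IRD1, all 49 probes were higher in IRD1, and the median difference was 0.85 (0.72 to 0.97). At the right end, the 20 probes from 2440500 on ran from 0.66 to 2.34 in WT and from 1.38 to 3.11 in IRD1, all 20 higher, with a median difference of 0.86 (0.72 to 1.01). The 17 measured probes of the rest of this end, up to 2440200, had medians of -1.07 in WT and -0.83 in IRD1 and differed by 0.07 (-0.08 to 0.31), so the higher level ended there. Input in WT was 2.52 above the array median at the left end and 2.43 in the right stretch, and it was lower in IRD1 by 0.21 and 0.12. Every probe of these ends carries a suffix. The ranges of the 2 arrays overlap. The size of the difference over both ends together depended on the loess correction, since loess within each array gave 0.36 in place of 0.81. With the normexp background correction it was 0.89. The medians of both ends were 1.05 in WT and 1.37 in IRD2, against 2.10 in IRD1 and 1.95 in IRD3. IRD1 and IRD3 are also the arrays with exchanged label entries and with more outlier-flagged spots. A difference between strains and one between these pairs of arrays cannot be told apart here.

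Outside the ends and the known domains, 1 peak on an arm differed, at 2340000 to 2341500 on chromosome 2. The 6 probes had -0.02, 0.62, 1.55, 2.71, 1.99 and -0.08 in WT and 1.24, 1.76, 3.04, 3.91, 3.51 and 1.88 in IRD1. Both strains thus had a peak with its summit at the same probe, 2340900, and IRD1 was higher at all 6 probes by a median of 1.37 (1.22 to 1.51), with an input difference of 0.11. The probes on either side, at 2339700 and 2341800, differed by less than 0.3, and none of the 6 carries a suffix. IRD2 and IRD3 had 3.64 and 4.31 at the summit, set against the same WT array. The medians of the other isolated stretches of high H3K9me3 on the arms did not differ in this way. The stretches at 60600 to 61500 and 4907700 to 4908300 on chromosome 1 went from 4.06 in WT to 4.24 in IRD1 and from 5.91 to 5.69. Those at 115500 to 117000 and 275100 to 276900 on chromosome 3 went from 5.70 to 5.66 and from 5.98 to 5.76. In the stretch at 115500 to 117000, however, single probes differed by -0.05 to 1.75. The stretch at 2115900 to 2117100 on chromosome 2, left of the mating-type domain, went from 5.32 to 5.25.

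Along the arms, weak enrichment was lower in IRD1. Among arm probes with a WT ratio between 1.5 and 2, the median was 1.66 in WT and 1.28 in IRD1, and 92.7% of 1498 probes were lower in IRD1. Among those between 0 and 0.5 the medians were 0.23 and 0.11, and 68.2% of 7581 were lower. Among the lowest, below -1, the medians were -1.27 in WT and -1.13 in IRD1, and 27.3% of 2709 were lower. Both tails thus lay closer to the array median in IRD1. Sorting probes by one of the arrays compared draws the other towards the middle. Sorted by the mean of both arrays, a choice made after the data were seen, the median difference was 0.08 below -1, -0.11 between 0 and 0.5, -0.22 between 0.5 and 1, -0.28 between 1 and 1.5, -0.28 between 1.5 and 2, and -0.21 between 2 and 3. Sorted in this way, the difference thus did not grow further above a level of 1. The interquartile range of arm ratios was 1.13 in WT and 0.94 in IRD1. It was 1.16 on the IRD2 array and 1.04 on that of IRD3, so it was narrower on the 2 arrays with more outlier-flagged spots.

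In arm windows this gave a lower count at every level up to 2. Of 7928 arm windows, 848 in WT and 371 in IRD1 had a median of at least 1, and 151 and 48 had at least 1.5. At a level of 2 the counts were 10 and 8. The 335 windows at or above 1 in both strains were most of the IRD1 list, 513 windows were at or above 1 in WT only, and 36 in IRD1 only. With the ends and domains included, 517 of 8167 windows (6.33%) were at or above 1 in WT only and 49 (0.6%) in IRD1 only. The 513 windows were mostly near the threshold, with a median of 1.14 in WT and 0.79 in IRD1. Of them, 500 were under 1.5 in WT, and 149 differed by 0.5 or more. With arm ratios of IRD1 scaled to the interquartile range of WT, 690 arm windows reached 1 in IRD1, so the counts move with the spread of the array, and a lower mark and a narrower spread of ratios cannot be told apart here. The highest arm window of WT, from 442500 to 444000 on chromosome 1, had 2.30 in WT and 1.86 in IRD1. The 3 highest arm windows of IRD1 were 2 of the inner run of chromosome 1, which in part lies outside the outer 40 kb, and that of the chromosome 2 peak. The next, from 21000 to 22500 on chromosome 3, had 1.74 in WT and 2.68 in IRD1.

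**Figure D4:**
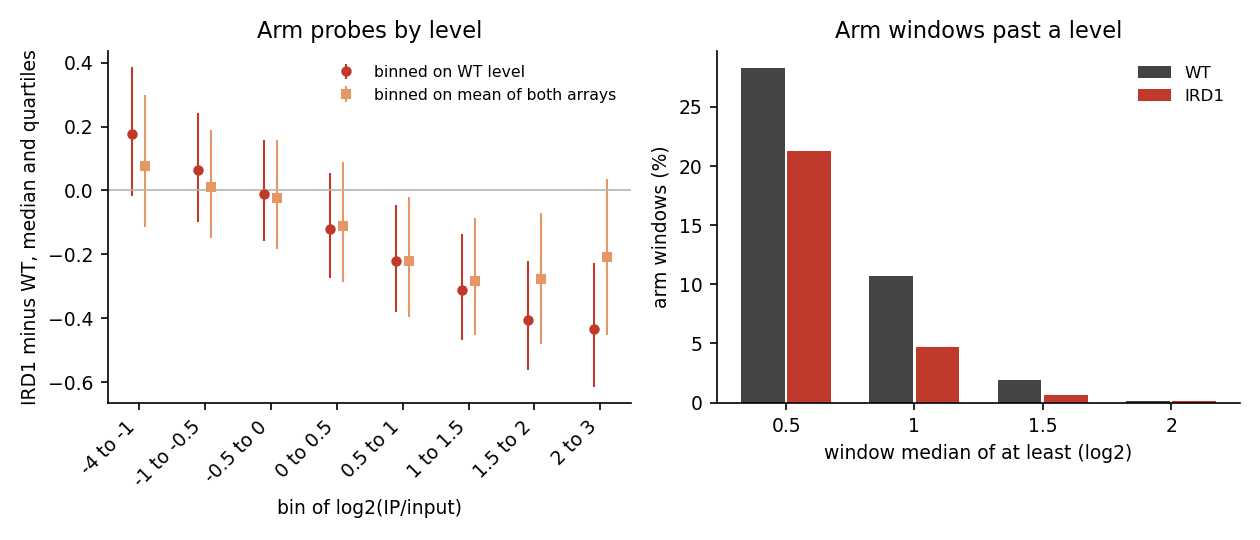
Left, difference between IRD1 and WT for arm probes by bin of log2(IP/input), with the median and quartiles, binned on WT or on the mean of both arrays. Right, the percentage of 7928 arm windows whose median reached each level, which was lower in IRD1 than in WT at 0.5, 1 and 1.5.

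The input channel was compared for missing or extra DNA. Across the arms of chromosomes 1, 2 and 3 the median input difference was 0.04, 0.04 and near 0, and its SD over single arm probes was 0.17. Inputs are centred on each array's median, so only unequal changes between chromosomes would show. The probe at 2138700 on chromosome 2, the first one to the right of the mating-type domain, had an input of -1.11 in WT and -7.21 in IRD1 relative to the array median. It was not well above background in IRD1, so WT was at least 64.5-fold brighter. Its input was -0.59 in IRD2 and -1.12 in IRD3, and the probes on either side, at 2138400 and 2139000, had -0.01 and -0.88 in IRD1. The missing signal was thus limited to 1 probe and to the IRD1 array. The mating-type contig had no such probe in IRD1 at its own right edge, where the inputs at 39300 and 39600 were -0.30 and -1.22. A probe at 21600 on that contig was also below the background limit in IRD1, but at -7.86 against -7.02 in WT it was near the limit on both arrays. No other genomic probe met the rule for input missing in IRD1.

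Input below the background limit in WT only, or lower in WT by at least 3 on the log2 scale, was found at 7 probes. Of these, 2133300 and 2133600 on chromosome 2 and 21900 on the mating-type contig were close to background on both arrays. The other 4 lay at 3000 and 3300 on the contigs pNSU21 and pNSU65, names used for cloned sequence from chromosome ends. On pNSU65, input at 3000 was -7.59 in WT and -0.88 in IRD1, and at 3300 it was -3.75 and -0.36. On pNSU21 it was -3.24 and 0.29 at 3000, and -5.43 and -0.47 at 3300. IRD2 and IRD3 had input between -0.80 and 0.56 at these 4 probes, so the signal was low on the WT array alone. It was well above background there at all 4, and 10.5-fold to 105-fold lower than in IRD1. The 105-fold value comes from the probe at 3000 on pNSU65. Its WT input was the lowest of that array still well above background, so this fold is measured at the limit. On the 2 contigs input also differed on the side before these probes. Over 17 probes from 0 to 2700, input was lower in IRD1 by 0.98 on the log2 scale, and the ratio was higher by 1.11 (0.98 to 1.34), while the 25 probes from 3600 on differed by 0.08 in input and by 0.09 (-0.11 to 0.34) in ratio. A lower input thus accompanied the higher ratio on these contigs, as in the dips at the chromosome ends.

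The reverse pattern, more input with no change of ratio, was seen at 92700 to 102600 on chromosome 2. Input of the 27 probes there was higher in IRD1 by 1.24, or 2.37-fold, with a median of 0.32 in WT and 1.58 in IRD1. Each of the 27 was higher, by 0.81 to 1.70. The ratio had a median of -1.01 on both arrays, so the precipitated signal was higher by about as much as the input. The probes on both sides were alike in input, with differences of -0.03 from 89700 to 92400 and 0.13 from 103500 to 105600. All 27 probes carry a suffix, and the flanking ones do not. Median input over the stretch was 1.44 in IRD2 and 1.26 in IRD3, so the WT array is again the one that stands apart.

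**Figure D5:**
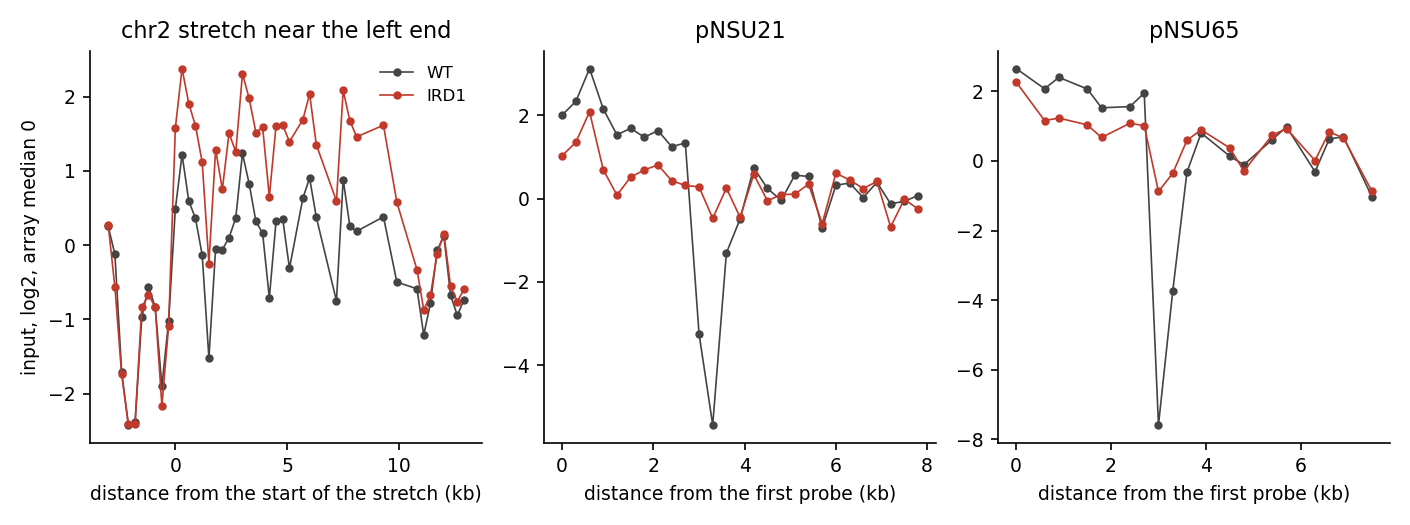
Input signal on the log2 scale, with the array median at 0, of WT and IRD1 along a stretch of chromosome 2 and along 2 contigs, against distance in kb. In the stretch IRD1 lies above WT at every probe, and on both contigs WT lies above IRD1 before 3 kb, falls steeply near 3 kb and lies close to IRD1 beyond 4 kb.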

How the data were processed

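H3K9me3 chromatin immunoprecipitation was read on 2-colour Agilent arrays, 1 per strain, with the arrays of IRD1 and WT compared and those of IRD2 and IRD3 given as values side by side. The intensity of each spot was read by Agilent Feature Extraction 12.0.3.1, per the file headers, which also record background subtraction and a linear dye normalization of the processed signals. In the deposited IRD1 file they are rounded to 3 significant digits. The deposited files also hold a log10 ratio, which was not used. The deposited value table gives linear ratio values, uncentred, with column medians of 1.11 in WT and 1.04 in IRD1, and it matched the scanner values within 0.01 on the log2 scale. Per the labels' protocols, red is precipitated and green input DNA.

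Log2 of red over green was centred on each array's median with Python 3.11.15 and pandas 2.3.3. The 1417 control spots, outlier-flagged spots and probes with input not well above background were left out. Domains were runs of WT 5-probe running medians of at least 3, joined across up to 3 kb, centromeres being the largest internal cluster of each chromosome. Ends were the outer 40 kb (20 kb on chromosome 3). Chromosome-end stretches were delimited by runs of probes, by the largest fall of the WT ratio between neighbouring probes (step), by WT under 0.5 with a difference of at least 0.3 (shoulder) and by an unbroken WT ratio of at least 0.5 (right end of chromosome 3). Flanks were the first 5 probes, and by distance up to 30 kb. Input counted as missing when not well above background on 1 array only, or lower by at least 3. A fold against such a spot uses the higher of its own signal and the lowest signal well above background, as a lower bound. Named regions were all gained and lost windows, the 10 largest increases and decreases, all runs of at least 4 probes, all probes with missing input and all isolated domains, and the text gives those that matter. The members, regions and lists were chosen with earlier results of these data known. Normexp and loess alternatives used limma 3.58.1 in R 4.3.3. The counting of windows was tested on simulated arrays with known changes. With 1 array per strain, their number limits the precision, and no significance test was run between strains.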

Additional observations from a re-analysis of the deposited data

How the results depend on the processing

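Each of 17 results was computed under up to 15 alternative settings, giving 157 values. Of these, 135 stayed within the limit of 0.23 for a difference (the SD given above from changes between neighbouring arm probes) or of 1.5 times for a count. The mating-type domain, centromeres 1 and 2 and the right end of chromosome 2 did so under every setting that gave a value. Some of the 135 could hardly move. Scaling arm ratios leaves the domains, ends and flanks unchanged, and the deposited table matched the scanner values within 0.01. That scaling also took the spread of arm ratios from -0.18 to near 0 by design, which still counted as within the limit. The limit is an SD of single probes, so it is wide for a median over many probes. With normexp the mating-type domain and the 3 centromeres changed sign, to between 0.003 and 0.03. The 22 values beyond the limit are as follows, and the cause was not tested where the setting itself does not give it. The count of windows lost, 2, was 1 with normexp, 1 with arm ratios scaled, 1 without suffix f or m, 1 with a minimum difference of 1.5, 0 with loess and 517 with no minimum. Windows gained, 12, were 6 without suffix probes and 49 with no minimum difference. Arm windows at or above 1 were 405 in WT and 201 in IRD1 with loess, and 690 in IRD1 with arm ratios scaled. Loess gave 0.36 at the chromosome 3 ends. Without suffix probes the difference was 0.23 at centromere 3, -0.24 at the left and 0.67 at the right end of chromosome 1, and the chromosome 3 ends gave no value. Means over probes gave 0.45 and 0.65 at the left and right ends of chromosome 1 and 0.56 at the left end of chromosome 2. The outer 20 kb gave 0.034 at the right end of chromosome 1 and 0.64 at the left end of chromosome 2. The first 10 probes gave -0.23 at the left and -0.25 at the right flank of the mating-type domain, where the first 5 gave 0.30 and 0.09. The gain in the inner run of chromosome 1 was 2.62 with normexp and 2.0 with loess, and the loss in centromere 3 was -2.39 and -1.46. No paired analysis was possible because each strain had 1 array.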

Other observations

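A single probe on an arm of chromosome 1, at 3197700, had an input of 0.87 in IRD1 against -0.39 in WT, -0.45 in IRD2 and -0.44 in IRD3. Its neighbours at 3197400 and 3198000 had inputs of -0.66 and 0.27 in IRD1 and of -0.39 and 0.09 in WT. The IRD1 spot was flagged as an outlier and gave no ratio, where WT had 2.15.

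The probes at 40200 and 40500 on chromosome 1, just inward of the left shoulder, stood out from their neighbours on both arrays. They had ratios of 3.40 and 3.66 in WT and of 4.38 and 4.49 in IRD1, between 0.49 at 39900 and 1.36 at 40800 in WT. The probe at 41100 stood out too, with 2.86 in WT and 4.32 in IRD1.

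Of the other contigs named pNSU, input was lower in IRD1 at 0 to 3300 on pNSU64, by 0.74 on the log2 scale, and at 4500 to 6000 on pNSU77, by 0.77. The ratio was higher there by 1.02 and 1.06. Median input at these places was 1.73 and 2.56 in WT, 0.68 and 1.76 in IRD2, and 0.63 and 1.64 in IRD3. On pNSU71, with 29 probes, the ratio differed by -0.04 and the input by 0.01.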
